A study of Mus musculus with 9 samples.

Results

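The transcription factors that direct bone formation were followed in mouse calvarial cells as they differentiated into osteoblasts. Of the 40548 genes in the tables, 9 were chosen by their gene symbols: Runx2, Sp7, Dlx3, Dlx5, Dlx6, Msx1, Msx2, Runx1 and Cbfb. All 9 were present with reads, and all 9 passed the filter on low values, which was a mean CPM (the reads on a gene as counts per 1000000 reads on all genes) of at least 1. Primary cells were released with collagenase from the skulls of postnatal day 2-3 C57BL/6 pups, and RNA was sequenced at day 0 (confluent cells before differentiation) and after 4 or 7 days in differentiation medium, which supplied β-glycerol phosphate together with ascorbic acid. The 3 libraries of a stage are replicates 1 to 3, for which the labels name neither animals nor litters, so the p-values measure the spread between these libraries. Such cultures are mixtures of cells, pups of both sexes were used by the methods, and mineralized cells were harvested with an additional collagenase step.

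Runx2 is required for osteoblast formation, binds DNA through its runt domain and does so more stably when paired with Cbfb, a subunit that does not itself bind DNA. Runx1 is a paralog with the same partner and is best known from blood formation. Sp7 (osterix) is a zinc finger protein needed downstream of Runx2. The Dlx and Msx proteins carry homeodomains: Dlx3, Dlx5 and Dlx6 mostly activate osteoblast genes, whereas Msx1 and Msx2 mostly repress transcription and mark progenitors of the skull.

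The 9 genes moved apart over the 7 days. Dlx3 rose from at most 3 reads in a day 0 library to a mean of 5.37 RPKM (CPM divided by the length of the gene model in kilobases), and Sp7 rose 3.39-fold in mean RPKM. Msx2 fell 3.80-fold and Msx1 2.92-fold, and Dlx6 fell 1.51-fold. For Runx2, Dlx5, Runx1 and Cbfb the difference between day 7 and day 0 did not pass the test on the deposited values. Runx2 was called higher after other scalings of the libraries, given below. By limma on log2(CPM + 0.5) with Benjamini-Hochberg adjustment over all genes, 2 of the 9 were higher and 3 were lower at an adjusted p under 0.05. Over the 12712 genes tested 31.2% passed, 12.6% higher and 18.6% lower. Dlx3 passed the filter on low values only through day 7, so it could only be called higher.

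**Figure D1:**
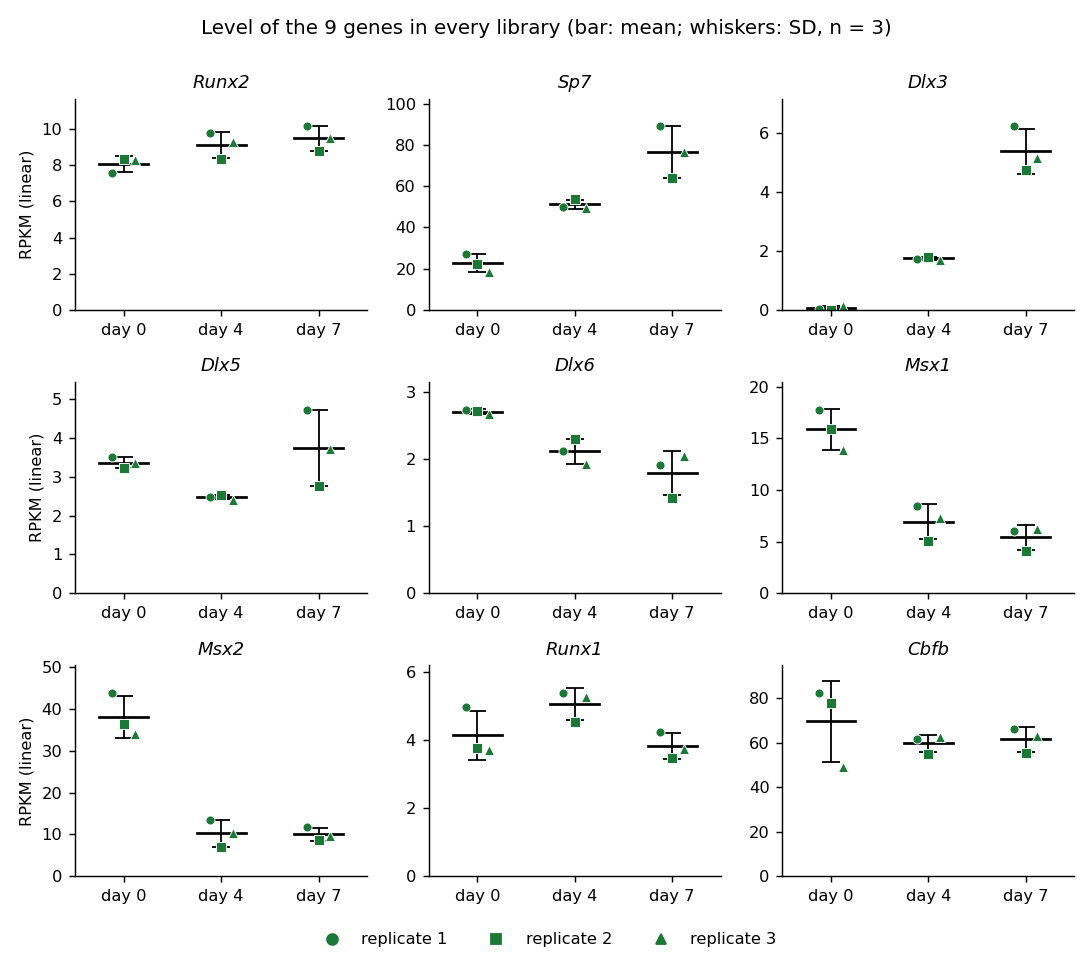
Level of each of the 9 genes in RPKM (linear axis from 0, different for each gene) at day 0, day 4 and day 7; each point is a library with its replicate number as the symbol, the horizontal bar is the mean and the whiskers the SD of 3 libraries. Sp7 and Dlx3 climbed at each step without overlap between stages, Msx1 and Msx2 dropped by day 4, and Dlx5 was lowest at day 4.

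Because several of the genes are paralogs, the stretches in which their coding sequences are most alike are shown first, since a read from such a stretch could be assigned to the wrong gene. The 90-base windows come from GENCODE M21 transcripts (GRCm38), each lies within 1 exon, and all of these are on the reverse strand except that of Dlx3. Capitals mark the bases that differ between the 2 genes of a pair. Msx1 (chr5:37821521-37821610, exon 2) and Msx2 (chr13:53468414-53468503, exon 2) were identical at 77 of 90 bases, with at most 22 in a row.
Msx1: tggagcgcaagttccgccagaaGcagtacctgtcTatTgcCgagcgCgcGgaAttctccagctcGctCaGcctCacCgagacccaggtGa
Msx2: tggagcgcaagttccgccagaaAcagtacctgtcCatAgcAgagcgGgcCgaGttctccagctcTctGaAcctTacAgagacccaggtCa
Runx1 (chr16:92695496-92695585, exon 3) and Runx2 (chr17:44735245-44735334, exon 3) were identical at 79 of 90 bases, and the longest run shared by their coding sequences was 26 bases.
Runx1: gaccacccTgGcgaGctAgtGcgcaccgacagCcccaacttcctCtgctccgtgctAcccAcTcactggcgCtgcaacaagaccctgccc
Runx2: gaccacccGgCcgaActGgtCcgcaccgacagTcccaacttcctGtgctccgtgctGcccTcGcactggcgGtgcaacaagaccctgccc
Dlx3 (chr11:95123409-95123498, exon 3) and Dlx5 (chr6:6878399-6878488, exon 3), which moved differently, were identical at 67 of 90 bases.
Dlx3: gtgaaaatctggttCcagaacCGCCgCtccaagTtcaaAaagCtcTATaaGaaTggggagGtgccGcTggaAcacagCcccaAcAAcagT
Dlx5: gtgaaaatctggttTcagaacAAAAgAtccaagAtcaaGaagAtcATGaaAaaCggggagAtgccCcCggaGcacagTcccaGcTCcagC
No 50-base stretch of a transcript of 1 of the 9 genes, read on both strands, was also found in a transcript of another of the 9. Against all other genes, 0 such stretches were shared for Dlx3, Dlx5, Msx1 and Cbfb, under 1% for Sp7, Msx2 and Runx1, 5.66% for Runx2 (most with the antisense gene Runx2os1) and 6.09% for Dlx6. Those of Dlx6 were spread over 596 other genes, the most (38) with Trdc.

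Runx2 (chr17:44495987-44814797, reverse strand, GRCm38) was present at every stage. Its level was 7.57, 8.32 and 8.28 RPKM at day 0, 9.75, 8.36 and 9.25 RPKM at day 4, and 10.1, 8.78 and 9.49 RPKM at day 7. As deposited, all libraries of day 4 and day 7 were above the highest of day 0, by a small margin, and day 4 and day 7 overlapped. With median-of-ratios scaling day 4 overlapped day 0 instead, and all day 7 libraries were above those of day 4. The means were 8.06 ± 0.422, 9.12 ± 0.706 and 9.47 ± 0.674 RPKM (SD, n = 3). The log2 difference of day 7 minus day 0 was 0.23 (SE 0.15, 95% interval -0.08 to 0.54), with an adjusted p of 0.268 by limma, and the exact permutation test gave p = 0.1, the smallest that 3 libraries against 3 allow. Over all genes the median log2 difference was -0.11 with the deposited values and moved by 0.10 with median-of-ratios scaling, and Runx2 stood 0.34 above the median gene. With that scaling its log2 difference was 0.34 with an adjusted p of 0.0363, and TMM scaling (0.0336), edgeR (0.0351), DESeq2 (0.0172) and voomWithQualityWeights (0.00467) also gave an adjusted p under the threshold. By its methods the study itself used TMM factors with voomWithQualityWeights. The call of Runx2 therefore differs between scalings, whereas its direction was the same in all 19 alternatives, with a log2 difference from 0.18 to 0.39 and an adjusted p from 0.00467 to 0.520.

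The gene of Runx2 shares its locus with the antisense genes Runx2os1, Runx2os2 and Runx2os3 and with Supt3 on the opposite strand. Only Runx2os1 shares exonic bases with it (519 bases, 5.87% of the exonic length of Runx2), and Runx2os1 had at most 19 reads in a library, against 567 to 2949 for Runx2. The sources used here do not state whether counting used the strand. In the 250 bases before the RefSeq start site of Runx2 (promoter table of build GRCm38.p6), the Runx motif TGTGGT, searched on both strands, occurred once, on the other strand, beginning 80 bases before that start. It is shown in capitals with its flanks, chr17:44814690-44814719, reverse strand, because Runx2 is itself a Runx protein.
Runx2: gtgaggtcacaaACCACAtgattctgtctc
In the same window 14.0% of the 32851 promoters held this motif, and 5.10% held TGCGGT, which had no match here. GENCODE places the 5′ end of Runx2 within the same window, so start sites differ between the annotations.

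Cbfb (chr8:105170674-105217989, forward strand), the common partner of the Runx proteins, had the highest mean of the 9 genes at day 0. Its level was 82.4, 78.0 and 48.9 RPKM at day 0, 61.6, 55.2 and 62.5 RPKM at day 4, and 66.4, 55.5 and 62.9 RPKM at day 7. Day 0 replicate 3 lay below all the other libraries, and the other day 0 libraries lay above all of them. The log2 difference was -0.15 (SE 0.17, 95% interval -0.48 to 0.19) with an adjusted p of 0.546 by limma. The value depended on the library left out. Without day 0 replicate 3 the log2 difference was -0.38 with an adjusted p of 0.00756. In that fit the median over all genes was also lower, -0.23 against -0.11. Without day 0 replicate 1 the difference of Cbfb was -0.008. Over all 19 alternatives it ran from -0.38 to -0.01 and the adjusted p from 0.00756 to 0.985. Day 0 replicate 3 had the fewest reads on genes, 7741204, and 11.97% of them were on a single gene, Gm42418, against 2.94% and 3.04% in the other day 0 libraries. With library totals taken without Gm42418 and Plekhh2, the mean of Cbfb was 73.8, 61.1 and 65.3 RPKM at day 0, day 4 and day 7, and day 0 still overlapped both later stages. The part of that library's composition and depth in the level of Cbfb was not tested.

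Runx1 (chr16:92601466-92826149, reverse strand) was lower than Runx2 at every stage. It had 4.99, 3.76 and 3.70 RPKM at day 0, 5.39, 4.53 and 5.26 RPKM at day 4, and 4.24, 3.49 and 3.74 RPKM at day 7. All day 7 libraries were below the lowest of day 4, while day 0 overlapped both. Day 7 minus day 0 gave a log2 difference of -0.11 (SE 0.16, 95% interval -0.44 to 0.22) with an adjusted p of 0.664 by limma. It was positive with voomWithQualityWeights (0.11) and without day 0 replicate 1 (0.031), and in no alternative was it past the threshold. Runx1 is also used by blood cells, and the summed CPM of 10 markers of macrophages and other blood cells was 14.3 to 25.5 at day 0, 33.2 to 38.2 at day 4 and 33.8 to 43.1 at day 7. The 6 of these 10 that could be tested were higher at day 7, beside 12.6% of all genes. Of these, Ptprc passed the filter only through day 7 (mean CPM 0.650 at day 0). Gata1 and Mpo were at or near 0 (at most 7 reads), and the part of such cells in the level of Runx1 was not tested. In these bulk samples fewer cells of a type and less RNA per cell cannot be told apart.

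The ratios between these genes within a library do not depend on its scaling. Runx2 exceeded Runx1 by a log2 ratio of RPKM of 0.60, 1.14 and 1.16 at day 0, 0.85, 0.88 and 0.81 at day 4, and 1.26, 1.33 and 1.34 at day 7. The day 7 ratios lay above all the others, and the difference of day 7 minus day 0 was 0.34 (exact permutation p = 0.1, 0.12 after Benjamini-Hochberg adjustment over 6 ratios). Day 0 replicate 1 stood apart, and without it the difference was 0.16. Runx2 against Cbfb gave a mean log2 ratio of -3.08 (SD 0.46) before differentiation, -2.71 (SD 0.05) after 4 days and -2.70 (SD 0.04) after 7 days, with n = 3 each, and day 0 overlapped day 7 (exact p = 0.4).

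Sp7 (chr15:102356606-102367182, reverse strand) rose at each step. It had 27.0, 22.4 and 18.3 RPKM at day 0, 50.1, 53.7 and 49.6 RPKM at day 4, and 89.0, 64.1 and 76.5 RPKM at day 7. No stage overlapped another. The mean was 22.6 ± 4.39 RPKM at day 0, 51.1 ± 2.26 RPKM at day 4 and 76.5 ± 12.4 RPKM at day 7 (SD, n = 3), a ratio of 2.27 for day 4 over day 0, where day 4 comes from tables of its own and was compared by its values alone. Its rise from day 0 to day 7 on the log2 scale was 1.76 (SE 0.16, 95% interval 1.43 to 2.09) with an adjusted p of 1.16e-12 by limma, and it ranked 339 among the 12712 genes from the largest rise down. It passed the threshold in all 19 alternatives, with a log2 difference from 1.62 to 1.93. Among protein-coding genes with reads its level moved from percentile 86.3 at day 0 to 95.1 at day 4 and 96.8 at day 7.

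The rise of Sp7 was larger than that of Runx2. The log2 ratio of Sp7 to Runx2 was 1.84, 1.43 and 1.14 at day 0, 2.36, 2.68 and 2.42 at day 4, and 3.13, 2.87 and 3.01 at day 7. The stages did not overlap, and the difference of day 7 minus day 0 was 1.54 (exact permutation p = 0.1, the smallest possible, and 0.12 after adjustment over 6 ratios). In linear terms Sp7 had 2.20 to 3.57 times the RPKM of Runx2 before differentiation and 7.30 to 8.78 times at day 7.

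**Figure D2:**
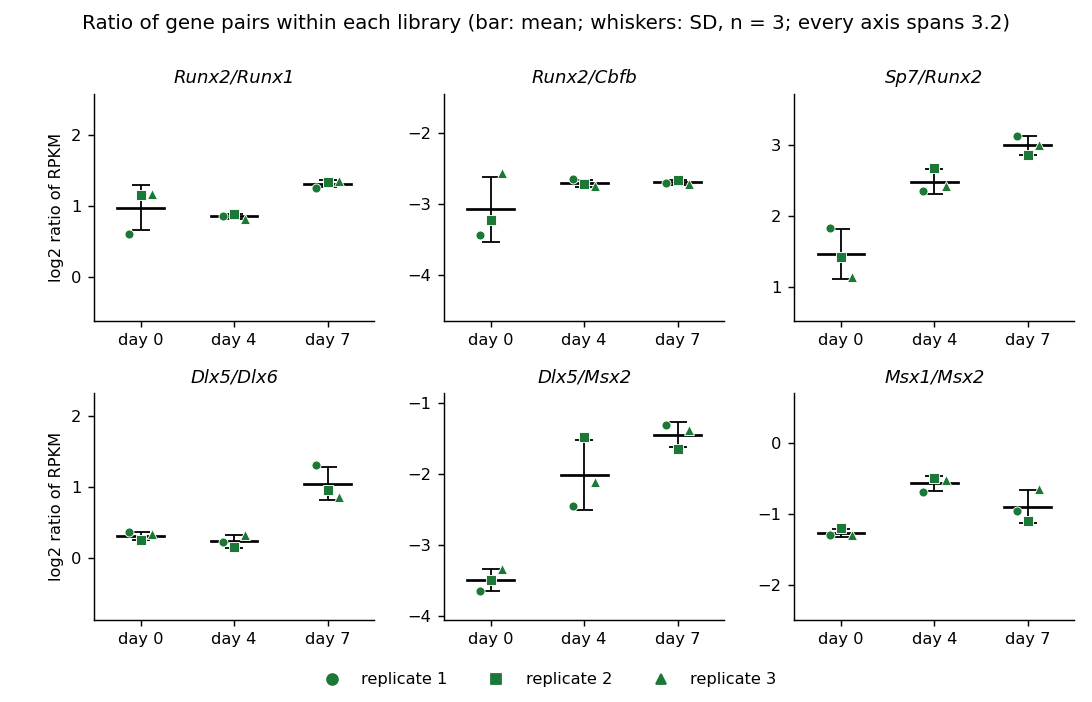
The log2 ratio of RPKM of 6 gene pairs within each library at day 0, day 4 and day 7; points are libraries, bars the mean and whiskers the SD of 3 libraries, and every vertical axis spans the same number of log2 units. The day 7 ratios lie above the day 0 ratios in every library for 5 pairs, and only Runx2/Cbfb overlaps.

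Dlx3 (chr11:95120119-95125296, forward strand), a homeobox gene of skin, tooth and bone, went from near absence to a measurable level. It had 1, 0 and 3 reads in the day 0 libraries (0.0274, 0 and 0.149 RPKM), 148, 175 and 160 reads at day 4 (1.73, 1.80 and 1.70 RPKM), and 221, 132 and 210 reads at day 7 (6.20, 4.74 and 5.15 RPKM). Day 0 was at or below the floor of 3 reads in every library, and no stage overlapped another. The 4 reads of day 0 against 563 of day 7 gave a ratio of shares of 119 (exact 95% interval 46.1 to 437), and the 483 reads of day 4 a ratio to day 0 of 38.3 (14.9 to 141). These intervals cover counting error only. Day 0 replicate 3 held 3 of the 4 reads, and without it the ratio of mean RPKM of day 4 over day 0 was 127 in place of 29.7. Day 7 was 3.08-fold above day 4 in mean RPKM. Dlx3 passed the filter only through day 7 (mean CPM 0.153 at day 0 and 14.0 at day 7). It could therefore only be called higher, and its p-value and rank are not from a neutral choice. Its log2 difference of 4.51 (95% interval 4.00 to 5.01, adjusted p 2.11e-20 by limma) ranked 35 among the rises, and was 3.71 with a pseudocount of 1 and 6.11 with 0.1. Over 18 alternatives, in all of which it passed, it ran from 3.39 with the RPKM table to 7.65 with voomWithQualityWeights. Keratinocytes also use Dlx3, and the summed CPM of 6 of their markers was 2.93 to 3.62 at day 0, 1.77 to 2.65 at day 4 and 1.87 to 2.62 at day 7. Krt5 and Krt14 had at most 2 reads in any library, and Krt10 had 12 to 61. Krt1, with at most 10 reads, had a mean CPM of 0.111, 0.162 and 0.423 at day 0, day 4 and day 7, while the means of the others were lower at day 7 than at day 0. The part of such cells in the level of Dlx3 was not tested.

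Dlx5 (chr6:6877805-6882085, reverse strand) and Dlx6 (chr6:6863334-6868568, forward strand) are neighbours on chromosome 6. Dlx5 had 3.51, 3.23 and 3.36 RPKM at day 0, 2.48, 2.54 and 2.42 RPKM at day 4, and 4.73, 2.76 and 3.73 RPKM at day 7. The day 4 libraries were below all of those of day 0 and day 7, and day 7 was the most spread, with an SD of 0.984 RPKM. Between day 0 and day 7 the log2 difference was 0.11 (SE 0.22, 95% interval -0.33 to 0.55) with an adjusted p of 0.747 by limma, and without day 7 replicate 1 it was -0.059. The reads behind it were few, 37 to 70 per library at day 0 and 42 to 92 at day 7.

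Dlx6 had 2.73, 2.71 and 2.66 RPKM at day 0, 2.12, 2.29 and 1.93 RPKM at day 4, and 1.91, 1.42 and 2.05 RPKM at day 7. All libraries of day 4 and day 7 lay below those of day 0, and day 4 and day 7 overlapped. The log2 difference was -0.55 (SE 0.21, 95% interval -0.99 to -0.12) with an adjusted p of 0.0430 by limma, close to the threshold. It passed in 8 of 18 alternatives, where adjusted p ran from 0.0224 to 0.254. It was lost with edgeR (0.0597), DESeq2 (0.138) and voomWithQualityWeights (0.0579), with all genes that had any reads (0.142) and with the replicate number as a block (0.0765). It was also lost without day 0 replicate 1 (0.0985), day 0 replicate 2 (0.105), day 7 replicate 1 (0.0842), day 7 replicate 2 (0.254) or day 7 replicate 3 (0.0642). The direction was lower in all 18.

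Dlx6 overlaps Dlx6os1 and Dlx6os2 on the opposite strand. Dlx6os1 shares no exonic base with Dlx6 and had a CPM of 4.21, 3.09 and 3.49 at day 0, 2.59, 1.34 and 2.05 at day 4, and 2.05, 1.87 and 2.11 at day 7, so that it too was lower in every later library. Dlx6os2 shares 104 exonic bases with Dlx6 and had at most 12 reads. Inhibitory neurons also use Dlx5 and Dlx6, and of their markers Gad1 had at most 6 reads, Gad2 at most 1 and Slc32a1 none in any library. The summed CPM of 5 neuron markers was 40.7 to 52.3 at day 0, 41.9 to 56.7 at day 4 and 39.3 to 61.2 at day 7, most of it from the tubulin gene Tubb3, with 311 to 2108 reads in a library. The part of such cells in the levels of Dlx5 and Dlx6 was not tested.

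The neighbouring genes moved unequally. The log2 ratio of Dlx5 to Dlx6 was 0.36, 0.25 and 0.33 at day 0, 0.23, 0.15 and 0.33 at day 4, and 1.31, 0.96 and 0.87 at day 7. Day 0 and day 4 overlapped, and every day 7 library lay above both. The difference of day 7 minus day 0 was 0.73 (exact permutation p = 0.1, 0.12 after adjustment). The difference does not depend on gene length, but the level of the ratio does, since the length behind the deposited RPKM of Dlx5 was 1423 bases and the exonic length in GENCODE M21 is 2263 bases.

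Msx2 (chr13:53466884-53473074, reverse strand) had the largest fall of the 9 genes. It had 43.7, 36.4 and 34.0 RPKM at day 0, 13.5, 7.08 and 10.4 RPKM at day 4, and 11.7, 8.62 and 9.66 RPKM at day 7. Day 0 lay far above both later stages, which overlapped each other. The mean was 3.68-fold lower at day 4 than at day 0. The log2 difference of day 7 minus day 0 was -1.91 (SE 0.16, 95% interval -2.24 to -1.59) with an adjusted p of 5.84e-14 by limma, the rank of 84 among the falls, and it passed in all 19 alternatives. Its percentile among protein-coding genes with reads went from 92.5 at day 0 to 73.5 at day 4 and 72.1 at day 7.

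Msx1 (chr5:37820485-37824583, reverse strand) followed the same course at a lower level. It had 17.8, 15.9 and 13.9 RPKM at day 0, 8.41, 5.06 and 7.28 RPKM at day 4, and 6.05, 4.05 and 6.20 RPKM at day 7. Again all later libraries lay below day 0 and overlapped each other, and day 4 was 2.29-fold below day 0 in the mean. The log2 difference was -1.54 (SE 0.18, 95% interval -1.89 to -1.18) with an adjusted p of 6.92e-10 by limma, the rank of 165 among the falls, and it passed in all 19 alternatives. The log2 ratio of Msx1 to Msx2 was -1.30, -1.19 and -1.29 at day 0, -0.68, -0.49 and -0.52 at day 4, and -0.95, -1.09 and -0.64 at day 7. All later ratios were above those of day 0, with a difference of day 7 minus day 0 of 0.37 (exact permutation p = 0.1, 0.12 after adjustment).

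Since both Msx genes fell together, the motifs in the 250 bases before their RefSeq start sites are shown with 12 bases on either side. Both held 1 GC box (GGGCGG, a motif bound by Sp proteins) on one of the strands, at chr5:37824640-37824669 for Msx1, beginning 72 bases before the start, and at chr13:53472923-53472952 for Msx2, beginning 160 bases before it. Msx2 also held the homeodomain motif TAATTA at chr13:53472950-53472979. All are given on the reverse strand, 5′ to 3′, with the motif in capitals.
Msx1: ttctctccggacCCGCCCcctcgcgctctg
Msx2: ttatttcaaacgGGGCGGgggaagggcccc
Msx2: tgactgctcctgTAATTAactcctaattta
Of the 32851 promoters 32.7% held GGGCGG, 4.84% held TAATTA and 7.17% held TAATTG, which had no match in either. Neither window had TGTGGT or TGCGGT. The window of Msx2 lies within the gene as GENCODE draws it, so its place before the start depends on the annotation. These matches describe letters in the window only, and 5 of the 9 genes had an entry in the table. Cbfb held GGGCGG at 4 places, and the 2 entries of Runx1 held none of the motifs.

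The summed CPM of 6 chondrocyte markers was 948 to 2747 at day 0, 317 to 999 at day 4 and 315 to 846 at day 7. Most of it came from Col2a1, the collagen of cartilage, with a mean CPM of 1436, 487 and 321 at the 3 stages. By limma Col2a1, Sox9 and Col9a1 fell, Acan and Comp rose and 1 of the 6 did not pass. The part of these cells in the fall of Msx1 and Msx2 was not tested. Dlx5 against Msx2, homeodomain proteins with opposing effects on osteoblast genes, changed most among the pairs: the log2 ratio was -3.64, -3.49 and -3.34 at day 0, -2.44, -1.48 and -2.11 at day 4, and -1.31, -1.64 and -1.37 at day 7. Day 0 lay below both later stages, and the difference of day 7 minus day 0 was 2.05 (exact permutation p = 0.1, 0.12 after adjustment).

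**Figure D3:**
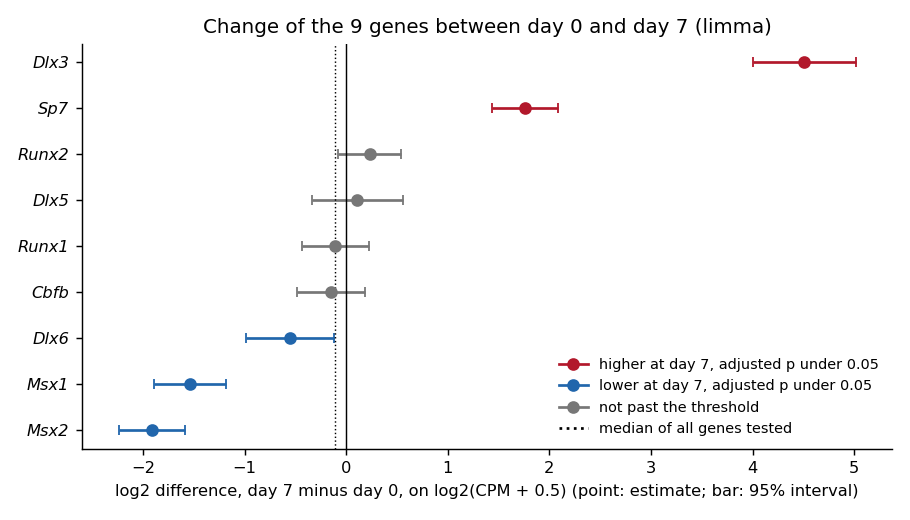
The log2 difference of day 7 minus day 0 on log2(CPM + 0.5) for each of the 9 genes, with points for the limma estimate and bars for its 95% interval, coloured by the call at an adjusted p under 0.05. The dotted line is the median of all 12712 genes (-0.11), and the estimates run from -1.91 for Msx2 to 4.51 for Dlx3.

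Compared by direction alone, 4 of the 9 genes (Runx2, Sp7, Dlx3 and Runx1) had a higher mean at day 4 than at day 0, and 5 had a lower one. For 7 genes the day 4 and day 0 libraries did not overlap, where Runx1 and Cbfb were the exceptions (Runx2 and Cbfb with median-of-ratios scaling). Of the 12710 genes that passed the filter on the day 0 and day 7 libraries and had day 4 values, 43.3% did not overlap either. Between day 4 and day 7, Sp7, Dlx3 and Dlx5 were higher and Runx1 was lower without overlap, which was 4 of 9 genes against 38.5% of all genes as deposited. With median-of-ratios scaling it was 6 of 9, since Runx2 and Cbfb were also higher at day 7 without overlap. The shares of all genes were taken as deposited only, so this count has no share beside it. Between day 0 and day 7, 6 of 9 did not overlap (3 higher and 3 lower), against 42.3% of all genes. Thus Dlx6, Msx1 and Msx2 were lower at day 4 than at day 0 without overlap and overlapped between day 4 and day 7, as deposited, with median-of-ratios scaling and with totals without Gm42418 and Plekhh2. Runx2 did the same in the opposite direction as deposited, but its day 4 overlapped day 0 with either of these scalings.

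The order of the 9 genes by level changed with the stage. At day 0 it was Cbfb, Msx2, Sp7, Msx1, Runx2, Runx1, Dlx5, Dlx6 and Dlx3 by mean RPKM, and no neighbours in it overlapped. At day 4 Cbfb was followed by Sp7, then by Msx2, Runx2, Msx1 and Runx1, of which each overlapped the next, and then by Dlx5, Dlx6 and Dlx3. At day 7 Sp7 was first, overlapping Cbfb. Msx2 and Runx2 came next and overlapped, as did Msx1 and Dlx3, and Runx1 and Dlx5, and Dlx6 was last. The order of the lowest genes rests on the gene lengths: with the exonic lengths of GENCODE M21, the length-scaled CPM of Dlx5 was 2.12 at day 0, below Dlx6 at 2.70, and at day 4 it had 1.56, the lowest of the 9. With these lengths 5 of the 27 ranks moved, while Sp7 was still first at day 7 (65.5 against 61.6 for Cbfb).

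The genes nearest to each factor in pattern were sought among 12782 genes by the root mean square difference of log2(CPM + 0.5), centred on each gene's mean over the 9 libraries, as a description only. For Sp7 these were Metrnl (0.09), Dixdc1 (0.12) and Ildr2 (0.13). Dlx3 was nearest to Car3 (0.27), Slc13a5 (0.29) and Lipc (0.31), and Runx2 to Sec24a (0.05), Fes (0.06) and Tmem150a (0.06). Msx2 was nearest to Tenm3 (0.18), Sema3c (0.19) and Rragb (0.19), and Msx1 to Zic4 (0.09), Lrrc75b (0.11) and Prkg1 (0.12). Among the 9 themselves Msx1 and Msx2 were each other's nearest (0.31), and Dlx3 was farthest from its nearest, Sp7 (1.18). Dlx5 was nearest to Gnas (0.11), Pcbd2 (0.12) and Cenpp (0.13), Dlx6 to Acot11, Usp42 and Ptger1 (0.08, 0.08 and 0.09), Runx1 to Kifc3, Mdn1 and Ggta1 (0.07, 0.07 and 0.08), and Cbfb to Sec62, Prpf4 and Cep57l1 (0.04 each). The genes share the libraries and their depth.

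Of the 13 other members of the Runx, Sp, Dlx and Msx families, 7 passed the filter. Of these 2 were higher and 1 was lower, beside 12.6% and 18.6% of all genes. The median log2 difference was -0.20 against -0.11 over all genes. Runx3, the last Runx gene, had mean levels of 1.38, 3.80 and 3.56 RPKM at day 0, day 4 and day 7. Its log2 difference of day 7 minus day 0 was 1.30 (adjusted p 2.50e-07 by limma), and the blood cell markers above were also higher at day 7, whose part was not tested. Dlx2 rose by 0.80 on the log2 scale (adjusted p 0.0148), with overlapping libraries, and was lost without day 0 replicate 2, day 0 replicate 3 or day 7 replicate 1 (adjusted p 0.0598, 0.0632 and 0.154). Sp8, with at most 34 reads in a library, fell by 1.01 (adjusted p 0.0198), passed in 7 of 17 alternatives, and was lost without day 7 replicate 1 or 3 (adjusted p 0.0781 and 0.237). It passed the filter only through day 0, with a mean CPM of 1.53 there and 0.552 at day 7. Sp1, Sp2, Sp3 and Sp4 did not pass. Without day 0 replicate 3 the lower genes of this list were Sp1, Sp3 and Sp4, with adjusted p of 0.0233, 0.00126 and 0.00420. In that fit the median over all genes was -0.23.

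Of 40 proteins known to bind, modify or oppose these factors, 37 passed the filter, 6 were higher and 9 were lower, beside 12.6% and 18.6% of all genes, with a median of -0.13. Hey1, a Notch target that binds Runx2, rose by 0.93 (adjusted p 0.00555) and Kdm4b, a histone demethylase, by 0.91 (adjusted p 6.83e-06). Ndn (necdin), which binds Msx and Dlx proteins through Maged1, fell by 1.39 (adjusted p 5.87e-10), from 56.8 to 21.4 RPKM. Zfp521, a zinc finger antagonist of Runx2, fell by 1.03 (adjusted p 4.10e-07), and Hdac7, a deacetylase that represses Runx2, fell by 0.90 (adjusted p 2.09e-05). Hes1, Rb1 and Atf4 were also higher. Tle4, Zfp423, Wwp1, Twist1, Smurf1 and Ets1 were the other lower ones, among them the ubiquitin ligases Wwp1 and Smurf1 and the Runx2 inhibitor Twist1, which was 97.0 ± 18.1 RPKM at day 0 and 67.2 ± 4.60 RPKM at day 7 (SD, n = 3). Several of these calls were close to the threshold. Ets1 passed in 12 of 19 alternatives. It was lost with RPKM, with the replicate block (0.0609) and without any 1 of 5 libraries (day 0 replicate 1 or 2, or a day 7 library), with an adjusted p up to 0.149. Atf4 passed in 14 of 19 and was lost with RPKM, with any reads and without day 7 replicate 1, 2 or 3 (adjusted p 0.0999, 0.0552 and 0.124). Zfp423 passed in 13 of 18 and was lost with any reads and without day 0 replicate 2 (0.196) or any day 7 library (0.0596, 0.0652 and 0.0683). Twist1 was lost without day 0 replicate 2, day 7 replicate 1 or day 7 replicate 2 (adjusted p 0.119, 0.0571 and 0.0561). Tle4, Wwp1 and Smurf1 were lost without day 0 replicate 2 or day 7 replicate 3, Rb1 without day 7 replicate 1 and Hey1 without day 7 replicate 2, with an adjusted p from 0.0533 to 0.118. The count of lower genes was 3 without day 0 replicate 2, 4 without day 7 replicate 3, and 15 without day 0 replicate 3, where the median over all genes was -0.23.

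Of 21 genes described as targets of Runx2, Sp7 or Dlx5, all passed the filter, which used the mean over the day 0 and day 7 libraries. Sost, Bglap, Bglap2, Dmp1 and Ifitm5 had a mean CPM of 0.0709, 0.340, 0.388, 0.540 and 0.858 at day 0. They passed only through day 7 and could only be called higher, so their calls are not neutral. By limma 19 were higher and 0 were lower, beside 12.6% and 18.6% of all genes, with 0 lower at an unadjusted p under 0.05, and the median was 1.76. Tnfrsf11b, with overlapping libraries, passed in 10 of 19 alternatives, with an adjusted p up to 0.227. With any reads 16 were higher, since Tnfrsf11b (adjusted p 0.0798), Col1a1 (0.187) and Col1a2 (0.298) were lost. Several were chosen as markers by the study on these libraries, so their direction is not independent evidence. The largest rises were of Ibsp (bone sialoprotein) at 9.43, Dmp1 (dentin matrix protein) at 7.73 and Bglap (osteocalcin) at 6.78 on the log2 scale, with adjusted p of 1.33e-41, 7.06e-33 and 2.27e-31. Fgfr2 (log2 difference -0.04, adjusted p 0.882) and Ihh (-0.35, adjusted p 0.326) did not pass. Ihh was lower without day 0 replicate 1 (adjusted p 0.00968), day 0 replicate 2 (0.0107) or day 7 replicate 2 (0.0476).

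**Figure D4:**
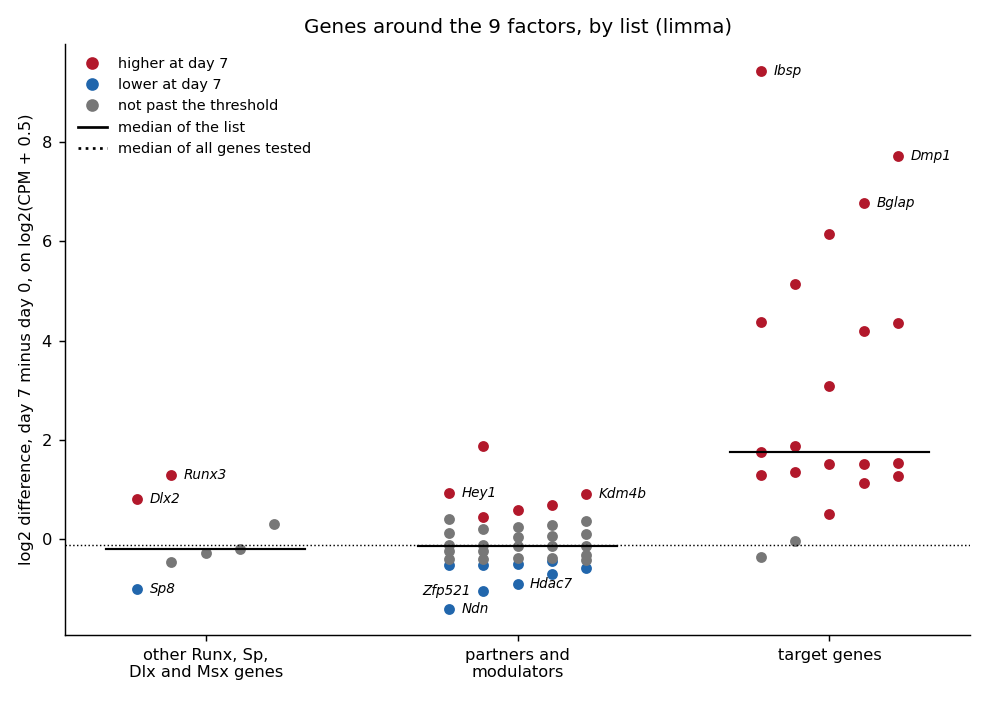
The log2 difference of day 7 minus day 0 on log2(CPM + 0.5) of the genes that passed the filter in 3 lists, with 1 point per gene coloured by its limma call, the median of each list as a line and the median of all genes as a dotted line; names are given for some of the largest rises and falls past the threshold. The target genes have a median of 1.76, the other family members of -0.20 and the partners of -0.13.

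Across libraries, reads on genes ran from 7741204 to 14013219 at day 0, 32820610 to 37306090 at day 4 and 10675858 to 15622755 at day 7. All 8 osteoblast markers rose by limma, but all are also among the 21 target genes above, so this is not a separate result. Their summed CPM, mostly from Col1a1, was 13367 to 17649 at day 0, 40141 to 46329 at day 4 and 44157 to 56377 at day 7. Osteoclast markers summed to 150 to 199 CPM at day 0 and 348 to 363 CPM at day 7, mostly from Ctsk. Endothelial and adipocyte markers were near 0, at most 2.34 and 0.0913 summed CPM.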

How the data were processed

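RNA-seq libraries from calvarial cells at day 0, day 4 and day 7 were used, with 3 per stage, mapped by their labels. Per the methods and the labels, the authors depleted ribosomal RNA, used STAR 2.0.4b to align reads to the GRCm38 assembly of Ensembl release 76, and used featureCounts to count, for each gene, the reads that aligned uniquely and without ambiguity. The authors deposited 2 values per gene: CPM, relative to all reads of the library that fell on genes, and RPKM, which is CPM divided by gene model length. Day 4 lies in tables of its own, so it entered no test. The repeated lines of a gene (276 and 273) were identical and used once, and genes were joined by Ensembl identifier. In every library 100% of CPM values were whole multiples of 1 read within 0.02 read, and these recovered reads served the count models and Dlx3.

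The test of day 7 against day 0 was limma 3.58.1 (R 4.3.3, trended variances) on log2(CPM + 0.5), filtered at a mean CPM of 1, with Benjamini-Hochberg adjustment over 12712 genes and a threshold of 0.05. A fold change on this scale understates the change of low genes. The prior had 42.9 degrees of freedom against 4 residual ones. Ratios had an exact two-sided permutation test. Scripts were tested on simulated data. Alternatives used other pseudocounts (0.1 and 1) and filters, RPKM, median-of-ratios and TMM scaling, edgeR 4.0.16, DESeq2 1.42.0, voomWithQualityWeights, a replicate block and leaving out each library. Library totals without Gm42418 and Plekhh2, robust variances and GENCODE lengths were added after the data were seen.

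The members and the gene lists were chosen with earlier results of these data known. Text names all members, the 3 largest rises and falls past the threshold in each list (1 of them is not reported here), further called or doubtful list genes chosen after their values were seen, the 3 nearest genes in pattern, and overlapping genes. Positions, transcripts and lengths come from GENCODE M21 and promoters from RefSeq.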

Additional observations from a re-analysis of the deposited data

How the results depend on the processing

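Sp7, Msx1 and Msx2 kept their direction and call in 19 alternatives each and Dlx3 in 18. Dlx3, Dlx5 and Dlx6 were not tested with a mean CPM of at least 10, which left 1 higher member and 1 higher gene among the other family members. The log2 difference of Runx1 was 0.11 with voomWithQualityWeights and ran from -0.18 to 0.031 with 1 library left out, and that of Dlx5 from -0.059 to 0.29, and none of these passed. Genes called numbered 6120 with voomWithQualityWeights against 3971, of which 40.3% were higher as deposited, 51.8% with median-of-ratios scaling, 50.9% with TMM and 25.8% without day 0 replicate 3. Lower genes among the other family members numbered 0 with any reads, a mean CPM of at least 10, RPKM, median-of-ratios, TMM, edgeR, DESeq2 and totals without Gm42418 and Plekhh2, and 2 with voomWithQualityWeights. Higher partners numbered 10 with median-of-ratios, TMM, edgeR and DESeq2 and 12 with voomWithQualityWeights, and lower partners 14 with totals without Gm42418 and Plekhh2. With GENCODE lengths 5 ranks moved. The causes were not tested.

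Leaving out 1 library gave 2882 to 6330 genes called, 2 higher and 2 to 4 lower members, 1 to 2 higher and 0 to 3 lower genes in the other families, 4 to 8 higher and 3 to 15 lower partners, 18 to 19 higher and 0 to 1 lower targets, 3 to 6 members higher at day 7 than at day 4, and 0 to 2 moved ranks. Whether the replicate numbers pair the samples is not given by the labels. Deviations from the stage mean correlated at -0.02, -0.18 and -0.44 for equal numbers and from -0.27 to 0.36 for unequal ones. This cannot decide the pairing, because the deviations of 3 libraries from their own mean depend on each other. With the replicate block 3413 genes were called and Dlx6 was lost (adjusted p 0.0765), with no other member's call changed. At 3 libraries against 3 the exact test cannot go below 0.1, and Dlx3 at day 0 and Dlx5 and Dlx6 rest on few reads.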
